A study of Homo sapiens and Mus musculus with 33 samples.

Results

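The glycolysis and hypoxia genes are a list of 35 genes: glucose transporters, the enzymes that turn glucose into lactate, the kinases that limit entry of pyruvate into mitochondria, and the oxygen-sensing system with some of its known targets. They were chosen by symbol among the 36591 genes of the human single-cell matrices, by the matching mouse symbols among 32245 genes, and by the position of their 3' ends in the bulk tables. Of the 35, 34 were found in each kind of file. The listed symbol MXD1L was in none of them and has no value here, and the mouse gene for GPI is listed as Gpi1.

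The series measured new and old RNA by metabolic labelling with 4-thiouridine (4sU), which is built into RNA made during the label and is read as a T-to-C change after chemical conversion with iodoacetamide (IAA). It holds 33 samples from SLAM-seq, a bulk form with 3'-end libraries, and NOTE-seq, a droplet single-cell form in which molecules are counted by unique molecular identifiers (UMIs). The bulk comparison used Jurkat T Clone E6-1, a human T cell leukaemia line, with 3 control libraries, 3 libraries labelled 50 nM CPT and 3 labelled 1 µM ETO, all 9 with 4sU. The labels do not spell out the drug names or give the exposure time. Single-cell libraries came from Jurkat cells left unstimulated or stimulated (PMA/ION against DMSO in the series' design, 2 libraries each, all with 4sU; the labels give Clone E6-1 for the unstimulated and E6-2 for the stimulated cells), and from mouse naïve T cells of lymph nodes at 0, 2, 4, 6 and 8 h of anti-CD3 and anti-CD28 stimulation (1 library each with 4sU, and 1 without 4sU). Further single libraries came from eHAP, a near-haploid human line, by the standard 10x kit without 4sU, by NOTE-seq with 4sU and after methanol fixation with 4sU and IAA. Others came from cells labelled K562, a human leukaemia line, with 4sU and with or without IAA. The last came from a mixture of Jurkat and NIH3T3, a mouse fibroblast line, without 4sU.

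Glycolysis splits glucose into pyruvate and yields ATP without oxygen; lactate dehydrogenase then turns pyruvate into lactate, which leaves the cell through monocarboxylate transporters. The transcription factor HIF-1, whose alpha subunit is marked for destruction by EGLN prolyl hydroxylases when oxygen is present, binds a short hypoxia response element and raises many of these genes. T cells are known to raise glycolysis when they are activated.

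The promoters are shown because many of the members are textbook targets of HIF-1. Of its binding core only the form ACGTG was searched, which is called the core below. RefSeq promoter windows (GRCh38.p14, 250 bases before to 50 after the start) were given for 30 of the 35 members. The core, searched on both strands as ACGTG or CACGT, was in at least 1 window of 19 of the 30 members (63.3%), against 24.9% of 27305 genes. Members have more windows per gene, and counted by window the shares were 40.4% of 57 and 21.4% of 35116. The core overlaps the E-box CACGTG, which other factors read and which counts as a match on each strand. The stretches below, 28 bases each on the strand of the gene, carry the core in capitals. They are from 7 members that fell in total RNA with both drugs and, last, from ENO2, which rose. The core was also in windows of PFKM, ANKRD37, GPI, PFKP and TPI1, which were not called lower with both drugs. Whether the core goes with the change in RNA was not tested.
PGK1: cggACGTGacaaacggaagccgCACGTc
LDHA: tcaCACGTGggttcccgCACGTccgccg
PDK1: ctgctgcccgcCACGTccctCACGTacc
ALDOC: cggCACGTGgtaaagggattgtggcaga
BNIP3: ccgCACGTGccacacgcaccccacgccc
SLC16A3: gtgACGTGcgcgggggACGTGccgcgcc
P4HA1: gctCACGTagcgagggctgcagtcgcct
ENO2: cgtACGTGcgcctccgccggcagctcct
The PGK1 stretch is chrX:78104043-78104070 (plus strand), from 205 to 178 bases before the start, and the LDHA stretch is chr11:18394473-18394500 (plus strand), from 90 to 63 bases before it. The PDK1 stretch is chr2:172556062-172556089 (plus strand) and ends at the last base before the start. The ALDOC stretch is chr17:28577111-28577138 (minus strand), the BNIP3 stretch chr10:131982033-131982060 (minus strand) and the SLC16A3 stretch chr17:82228971-82228998 (plus strand). The P4HA1 stretch is chr10:73096928-73096955 (minus strand) and the ENO2 stretch chr12:6914459-6914486 (plus strand). A match is a description of these letters and not a measured binding site. No promoter window holds ACGTG in ENO1, PGAM1 or PFKFB4, which draws nothing about the factor. Other forms of the core were not searched.

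The Jurkat bulk libraries held 19049329 to 40839684 reads over grouped 3' UTRs. Reads from mitochondrial genes were 1.05 to 1.24% of reads in the control, 5.31 to 6.68% with CPT and 2.88 to 3.03% with ETO, so this share moved with the groups; mitochondrial reads were left out of library sizes, and its part in the results was not tested. In bulk RNA a lower level in each cell and fewer cells with the RNA cannot be told apart. Nothing in the labels says that the replicates came from separate cultures, so the p-values measure how these libraries vary and no more, and that variation may be technical.

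In total RNA, the glycolysis and hypoxia genes were mostly lower with both drugs. With CPT, 25 of 33 members tested fell and 4 rose; among all 14974 genes tested, 52.2% were called, 27.5% lower and 24.7% higher (edgeR's quasi-likelihood test, Benjamini-Hochberg adjusted p under 0.05). With ETO, 21 fell and 2 rose, where 37.8% of all genes were called, 19.4% lower and 18.3% higher. The members' median log2 fold change was -0.51 with CPT and -0.26 with ETO, and that of all genes -0.01 and 0.01. Among genes of at least 10 CPM (reads of a gene scaled to libraries of the same size), which are easier to call, 39.1% fell with CPT and 27.4% with ETO, and 25 and 21 of the 30 members at that level did. EGLN3, with 42 reads over the 9 libraries, did not pass the filter on low counts. The 2 comparisons share the same control libraries, so their values are given side by side for each member. HIF1A, ANKRD37 and ADM passed the threshold in neither comparison. The control and drug libraries did not overlap, and were lower with the drug, for 26 members with CPT (30.8% of all genes) and 23 with ETO (26.7% of all genes).

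**Figure D1:**
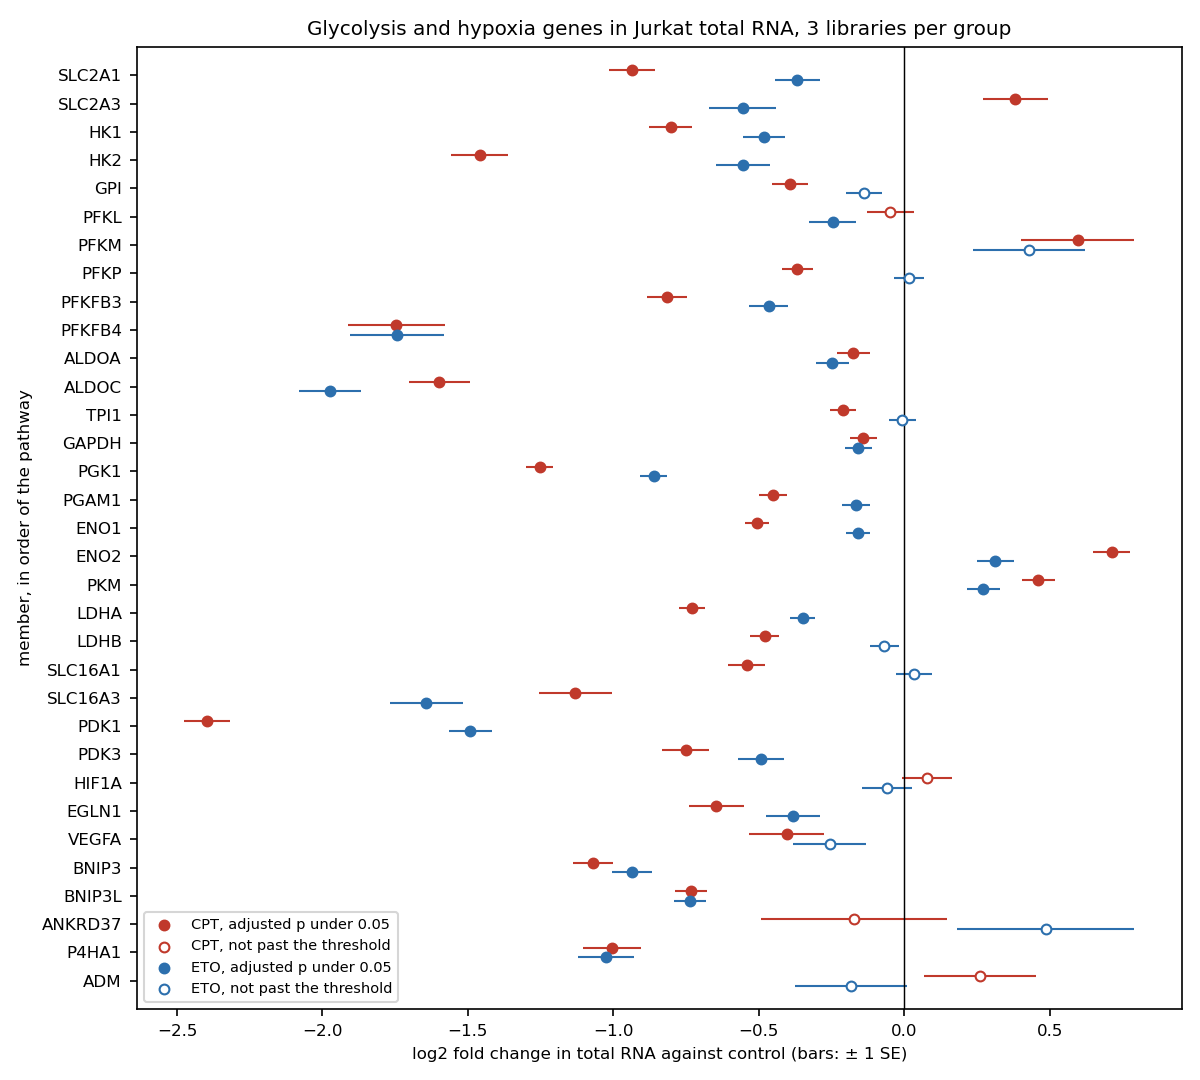
Log2 fold change of each of the 33 tested members in total RNA (x axis, bars ± 1 SE) with CPT (red) and ETO (blue) against the same 3 control libraries; filled points passed adjusted p under 0.05. Most points lie left of 0, PDK1 farthest left with CPT at -2.40 and ALDOC with ETO at -1.97; ENO2 and PKM lie right of 0 with both drugs.

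Glucose uptake split. SLC2A1, the widespread basal glucose transporter, stood at 58.1, 58.2 and 55.7 CPM in the control, 29.1, 31.9 and 28.7 with CPT and 42.1, 47.2 and 43.9 with ETO. The 3 groups did not overlap, and SLC2A1 fell by 0.94 ± 0.08 (SE) on the log2 scale with CPT (edgeR adjusted p = 3.6e-09) and by 0.37 ± 0.08 with ETO (edgeR adjusted p = 7.0e-04). SLC2A3, a high-affinity transporter, stood at 22.4, 19.5 and 18 CPM in the control, 26.2, 25.0 and 26.8 with CPT and 14.8, 14.1 and 11.8 with ETO. All CPT libraries were above and all ETO libraries below the control. SLC2A3 was the only member called in opposite directions by the 2 drugs: it rose by 0.38 ± 0.11 with CPT (edgeR adjusted p = 0.0070; 0.31, adjusted p = 0.053, without the third control library) and fell by 0.56 ± 0.11 with ETO (edgeR adjusted p = 5.5e-04). Compared directly, CPT libraries were 0.94 ± 0.11 above ETO libraries on the log2 scale (edgeR adjusted p = 1.9e-06).

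The hexokinases, which trap glucose in the cell, both fell. HK2, the inducible form, went from 50.1, 43.4 and 45.6 CPM in the control to 15.3, 18 and 17.3 with CPT, a log2 change of -1.46 ± 0.10 (edgeR adjusted p = 9.7e-11), and to 31.9, 33.9 and 28.8 with ETO, a change of -0.55 ± 0.09. The CPT libraries were the lowest and the groups did not overlap. HK1, the constitutive form, changed by -0.80 ± 0.07 and -0.48 ± 0.07. Of HK2's reads, 21.6% also mapped elsewhere.

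The regulators of phosphofructokinase fell strongly. PFKFB4, which makes and breaks down fructose 2,6-bisphosphate, the activator of phosphofructokinase, stood at 18.7, 20.0 and 20.7 CPM in the control, 7.15, 4.22 and 6.44 with CPT and 6.79, 5.17 and 5.90 with ETO. The drug groups lay far below the control and overlapped each other, with changes of -1.75 ± 0.17 and -1.74 ± 0.16 (edgeR adjusted p = 1.7e-08 and 3.4e-08). PFKFB3, the form that favours synthesis of this activator, changed by -0.82 ± 0.07 and -0.47 ± 0.07.

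The enzymes of the first part of glycolysis moved less, with ALDOC as the exception. ALDOC, an aldolase best known from brain, stood at 157, 125 and 130 CPM in the control, 41.0, 48.8 and 46.4 with CPT and 41.3, 34.9 and 29.1 with ETO. No drug library reached the control range, and the changes were -1.60 ± 0.11 and -1.97 ± 0.11 (edgeR adjusted p = 6.7e-11 and 7.7e-12). ALDOA, the main aldolase, changed by only -0.17 ± 0.06 and -0.25 ± 0.06; the CPT call was lost without the second control library (edgeR adjusted p = 0.052) or the first CPT library (adjusted p = 0.058). GPI, which turns glucose 6-phosphate into fructose 6-phosphate, fell by 0.39 ± 0.06 with CPT, and with ETO its value was -0.14 (adjusted p = 0.086). PFKP, the platelet-type phosphofructokinase, fell by 0.37 ± 0.05 with CPT and stood at 0.02 with ETO (adjusted p = 0.82). TPI1, which interconverts the triose phosphates, fell by 0.21 ± 0.05 with CPT and stood at -0.01 with ETO (adjusted p = 0.93). PFKL, the liver-type phosphofructokinase, fell by 0.25 ± 0.08 with ETO (edgeR adjusted p = 0.019), a call lost without the second control library or without the second or the third ETO library (edgeR adjusted p from 0.054 to 0.14). PFKM, the muscle type, rose by 0.60 ± 0.20 with CPT (edgeR adjusted p = 0.014; 0.052 without the first control library) from 3.76, 4.04 and 4.27 to 6.02, 5.58 and 6.70 CPM.

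In the second part of glycolysis PGK1 fell most, and ENO2 and PKM rose. PGK1, which makes the first ATP of the pathway, stood at 942, 923 and 905 CPM in the control, 377, 395 and 390 with CPT and 518, 495 and 511 with ETO. The 3 groups were far apart, with changes of -1.25 ± 0.05 and -0.86 ± 0.05 (edgeR adjusted p = 6.1e-15 and 8.4e-12). ENO1, the common enolase, changed by -0.51 ± 0.04 and -0.16 ± 0.04. ENO2, the enolase best known from neurons, went the other way: it stood at 191, 184 and 173 CPM in the control, 270, 324 and 305 with CPT and 225, 235 and 221 with ETO. ENO2 rose by 0.71 ± 0.06 and 0.31 ± 0.06 (edgeR adjusted p = 7.9e-09 and 5.5e-04), with no overlap between groups. PKM, pyruvate kinase, stood at 703, 840 and 835 CPM in the control, 1059, 1127 and 1088 with CPT and 954, 982 and 935 with ETO. All drug libraries were above the control, and PKM rose by 0.46 ± 0.06 and 0.27 ± 0.06 (edgeR adjusted p = 8.6e-07 and 7.7e-04). GAPDH changed by -0.14 ± 0.05 and -0.16 ± 0.05, small next to the others. The CPT call was lost with DESeq2 (adjusted p = 0.055), with only the 2 groups in the fit (edgeR adjusted p = 0.076) and without the third CPT library (edgeR adjusted p = 0.088), and the ETO call without the second ETO library (edgeR adjusted p = 0.068). PGAM1, phosphoglycerate mutase, changed by -0.45 ± 0.05 and -0.17 ± 0.05; the ETO call was lost without the second ETO library (edgeR adjusted p = 0.059).

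**Figure D2:**
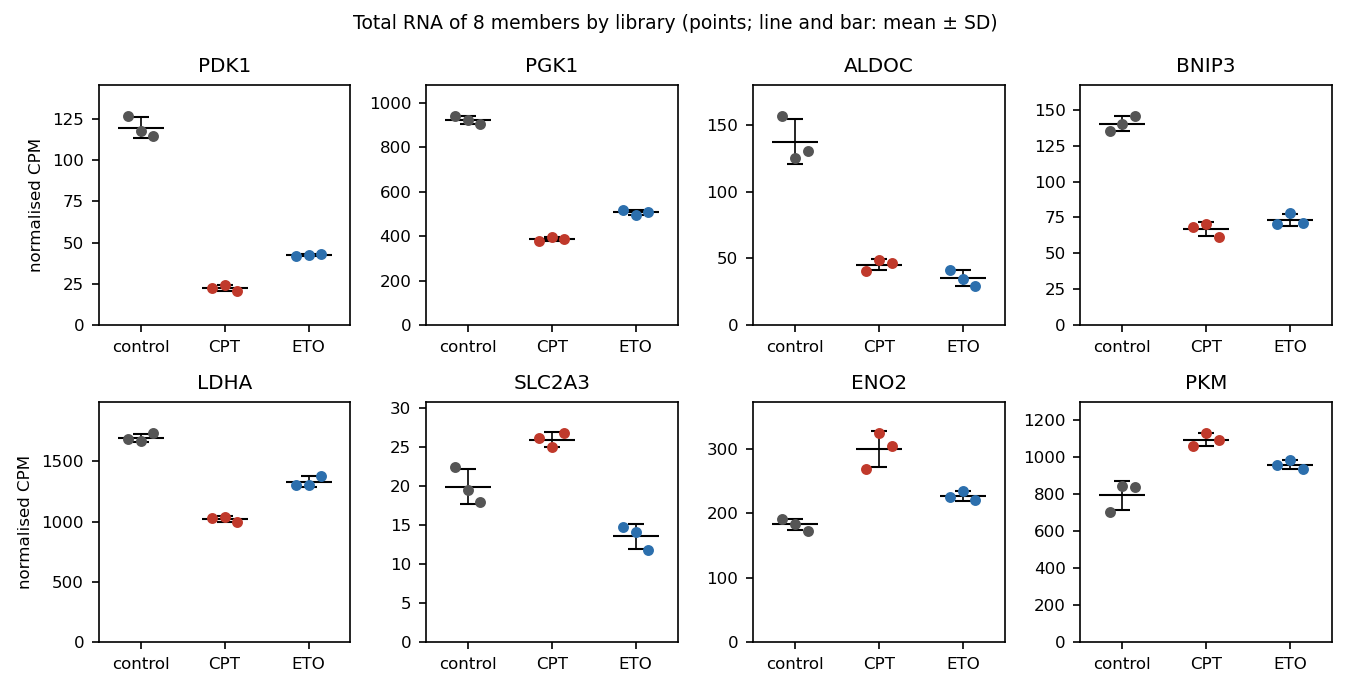
Total RNA of 8 members as normalised CPM (y axis, from 0) in each of the 3 control, 3 CPT and 3 ETO libraries (points), with the mean and SD. PDK1, PGK1, ALDOC, BNIP3 and LDHA are lower with both drugs, SLC2A3 is above the control with CPT and below it with ETO, and ENO2 and PKM are above it with both.

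Of the lactate genes, LDHA, the lactate-making subunit, stood at 1679, 1665 and 1731 CPM in the control, 1027, 1041 and 993 with CPT and 1302, 1302 and 1380.1 with ETO. The groups did not overlap, and LDHA changed by -0.73 ± 0.04 and -0.35 ± 0.04 (edgeR adjusted p = 1.8e-11 and 2.4e-06). LDHB, the subunit more common in oxidative tissue, fell by 0.48 ± 0.05 with CPT and stood at -0.07 with ETO (adjusted p = 0.31). SLC16A3, the lactate exporter known as MCT4, stood at 25.4, 27.8 and 23.1 CPM in the control, 11.1, 12.3 and 11.4 with CPT and 9.38, 8.07 and 7.03 with ETO, so its ETO libraries were the lowest. It changed by -1.13 ± 0.12 and -1.64 ± 0.13. SLC16A1, known as MCT1, fell by 0.54 ± 0.06 with CPT and stood at 0.03 with ETO (adjusted p = 0.71). Nearly all reads of LDHA and SLC16A1 (99.9% and 99.7%) and 94.6% of those of PGAM1 also mapped elsewhere. These genes cannot be told apart from near-identical copies. Without these 3, 22 of 30 members fell with CPT and 19 with ETO, where 27.5% and 19.4% of all genes fell.

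Among the members the largest change with CPT was in PDK1, a kinase that switches off pyruvate dehydrogenase. PDK1 stood at 127, 117 and 114 CPM in the control, 22.5, 24.5 and 20.9 with CPT and 41.8, 42.5 and 43.1 with ETO. The 3 groups were far apart, with changes of -2.40 ± 0.08 and -1.49 ± 0.07 (edgeR adjusted p = 6.1e-16 and 2.0e-12). PDK3, a second kinase of this family, changed by -0.75 ± 0.08 and -0.49 ± 0.08.

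The oxygen-sensing genes did not move as 1 group. HIF1A, the oxygen-regulated alpha subunit of HIF-1, stood at 35.8, 35.5 and 38.0 CPM in the control, 36.8, 37.2 and 41.6 with CPT and 32.3, 37.9 and 34.5 with ETO, and the groups overlapped. Its log2 values were 0.08 ± 0.09 with CPT and -0.06 ± 0.09 with ETO (edgeR adjusted p = 0.47 and 0.63). EGLN1, the main HIF prolyl hydroxylase and itself a known HIF target, changed by -0.65 ± 0.10 and -0.38 ± 0.09. Among the hypoxia targets, BNIP3, a mitophagy receptor, stood at 135, 140 and 146 CPM in the control, 68.6, 70.4 and 61.5 with CPT and 70.6, 78.4 and 71.1 with ETO. The drug libraries were all far below the control and close to each other, with changes of -1.07 ± 0.07 and -0.93 ± 0.07. Its relative BNIP3L changed by -0.73 ± 0.06 and -0.74 ± 0.05, and P4HA1, a collagen prolyl hydroxylase, by -1.0 ± 0.10 and -1.03 ± 0.10. Of BNIP3's reads, 22.9% also mapped elsewhere. VEGFA, the angiogenic growth factor, fell by 0.40 ± 0.13 with CPT and stood at -0.26 with ETO (adjusted p = 0.12). ADM, a vasodilator peptide, and ANKRD37 were at most 10.2 and 3.42 CPM in any library, and neither passed the threshold.

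Compared directly in total RNA, 16 members were lower with CPT than with ETO and 5 were higher, where 33.9% of all genes were called, 18.4% lower and 15.4% higher. PDK1 (-0.91 ± 0.08), HK2 (-0.91 ± 0.10), SLC16A1 (-0.57 ± 0.06) and SLC2A1 (-0.57 ± 0.08) had the largest differences among those lower with CPT. The other 12 were LDHB (-0.41), PGK1 (-0.39), PFKP (-0.39), LDHA (-0.38), PFKFB3 (-0.35), ENO1 (-0.35), HK1 (-0.32), PGAM1 (-0.29), GPI (-0.26), PDK3 (-0.26), EGLN1 (-0.26) and TPI1 (-0.20). EGLN1's call was lost with DESeq2 (adjusted p = 0.052) and in 8 other fits (edgeR adjusted p from 0.055 to 0.13), and that of PDK3 without the third CPT or the first ETO library (edgeR adjusted p = 0.061 and 0.051). The 5 higher with CPT were SLC2A3, SLC16A3 (0.51 ± 0.13), ENO2 (0.40 ± 0.06), ALDOC (0.38 ± 0.11) and PKM (0.19 ± 0.06). The ALDOC and PKM calls were each lost without the second CPT library (edgeR adjusted p = 0.061 and 0.077) and without the third ETO library (edgeR adjusted p = 0.085 and 0.063), and PKM also without the first ETO library (edgeR adjusted p = 0.052). For PFKFB4, BNIP3L and P4HA1 the 2 drugs' values differed by -0.00 ± 0.17, 0.00 ± 0.05 and 0.02 ± 0.10, with adjusted p of at least 0.89, which does not show that the drugs act alike.

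Other genes of these pathways, from lists also chosen with earlier results known, were counted the same way. Of all 14974 genes, 27.5% fell and 24.7% rose with CPT, and 19.4% fell and 18.3% rose with ETO. In lists this small, a count near these shares says nothing about the list. Of 19 other hypoxia targets tested, 8 fell and 3 rose with CPT and 8 fell and 1 rose with ETO. CA9, a carbonic anhydrase, stood at 5.98, 6.17 and 6.13 CPM in the control, 0.806, 0.127 and 0.106 with CPT and 0.584, 0.504 and 1.03 with ETO, far below the control in all drug libraries (log2 -4.12 and -3.11, edgeR adjusted p = 1.7e-07 and 2.9e-06). FAM162A, a mitochondrial protein, fell by 1.02 and 0.81 and NDRG1 by 0.96 and 1.33. STC2, a secreted stress glycoprotein, rose by 0.95 and 1.91. Of 8 pyruvate dehydrogenase genes tested, 5 fell with CPT, and 3 fell and 1 rose with ETO. Of 18 other glycolysis genes, 6 fell and 2 rose with CPT, and 4 fell and 5 rose with ETO; ENO3, the muscle enolase, rose with both by 1.26 and 0.86. Of 7 pentose phosphate genes, 5 fell and 1 rose with CPT and 2 fell and 2 rose with ETO, and of 7 other oxygen-sensing genes, 2 fell and 3 rose with CPT and 3 fell and 1 rose with ETO.

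Reads with a T-to-C conversion mark RNA made during the label, and their percentage in a gene separates new from older RNA. In the 3 control libraries the median member had 0.643% ± 0.045 (SD, n = 3) converted reads, over the 32 members with at least 100 reads in each, and the median of 10783 genes was 2.53% ± 0.04. Of the 32 members, 24 were below that median, and 19 were under 1%, as were 19.1% of all genes. The members fell apart by role. All 13 enzymes of the chain from GPI to PKM were below the median, from 0.130% in GAPDH to 1.12% in PGAM1. The 8 members above it were the transporters SLC2A1 and SLC2A3, HK2, PFKFB3, HIF1A, EGLN1, VEGFA and ADM. VEGFA had 11.6, 12.5 and 8.28% converted reads, ADM 10.8, 8.70 and 7.56%, HIF1A 7.89, 8.43 and 9.44% and SLC2A3 9.03, 7.77 and 5.78%. Of the hexokinases HK2 had 4.17, 3.27 and 3.78% and HK1 0.603, 0.591 and 0.459%, and of the phosphofructokinase regulators PFKFB3 had 6.09, 4.61 and 4.85% and PFKFB4 0, 0.308 and 0.396%. Both of these pairs were apart in every library. Among the lactate genes the lactate-making subunit and the exporter had the lower shares: LDHA had 0.389, 0.369 and 0.305% and LDHB 0.632, 0.707 and 0.660%, and SLC16A3 had 0.253, 0.666 and 0.593% and SLC16A1 2.26, 2.53 and 2.23%. No unlabelled bulk Jurkat library was used here, so the level that sequencing errors give is not known, and shares near those of GAPDH may hold little or no labelled RNA. The share also depends on the number of T bases read.

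The median converted share over all genes was 1.23% with CPT and 2.59% with ETO, and over the members 0.629% ± 0.214 and 1.30% ± 0.38 (SD, n = 3). ENO1 had 0.293, 0.302 and 0.282% converted reads in the control, 0.436, 0.324 and 0.295% with CPT and 0.608, 0.706 and 0.679% with ETO. All ETO libraries were above all others. PDK1 had 0.660, 0.762 and 0.478% in the control and 4.08, 2.85 and 4.40% with ETO, on 41, 48 and 57 converted reads; with CPT it had 0, 10 and 2 converted reads. VEGFA had 3.48, 3.07 and 0.625% with CPT, below all control libraries, on only 7, 7 and 1 converted reads. ADM had 2.34, 1.86 and 1.56% with CPT, on 3, 4 and 3 converted reads. In ETO libraries ADM stood at 15.0, 11.3 and 17.3%, above all control libraries.

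The ratio of converted to other reads was tested for 27 members, relative to the typical gene of each library. With CPT, 5 of them rose and 0 fell (edgeR adjusted p under 0.05), where 1.08% of 9077 genes were called, 0.848% higher and 0.231% lower. With ETO, 4 rose and 0 fell, where 0.54% were called, 0.485% higher and 0.0551% lower. At an unadjusted edgeR p under 0.05, 12 and 14 members passed in either direction, as did 1393 and 807 of the 9077 genes. With CPT the 5 called members were ENO1 (log2 1.06 ± 0.14, edgeR adjusted p = 0.0017), TPI1 (1.07 ± 0.20, adjusted p = 0.018), PGK1 (1.20 ± 0.23, adjusted p = 0.021), BNIP3 (1.48 ± 0.30, adjusted p = 0.025) and PGAM1 (0.68 ± 0.15, adjusted p = 0.046). With ETO the 4 were ENO1 (1.13 ± 0.14, edgeR adjusted p = 8.7e-04), TPI1 (1.21 ± 0.18, adjusted p = 0.0036), LDHA (0.76 ± 0.15, adjusted p = 0.030) and PDK1 (2.56 ± 0.51, adjusted p = 0.031). From control to CPT the mean converted share went from 0.292 to 0.352% in ENO1, 0.299 to 0.355% in TPI1 and 0.418 to 0.552% in PGK1. It went from 1.62 to 2.62% in BNIP3 and from 1.12 to 1.04% in PGAM1. The all-gene median went from 2.53 to 1.23%, so a level share counts as a rise here. The share of reads converted by sequencing error is not known, and its part in these calls was not tested. The LDHA and PDK1 calls were lost whichever library was left out (edgeR adjusted p from 0.081 to 0.29 and from 0.094 to 0.30). Both were also lost with a replicate block of same-numbered libraries (edgeR adjusted p = 0.085 and 0.098). With CPT, TPI1, PGK1, BNIP3 and PGAM1 each lost their call without at least 1 library. Nearly all reads of LDHA and PGAM1 also mapped elsewhere, and 22.9% of those of BNIP3 did. The count hung on single libraries: leaving out 1 library left 1 to 5 calls with CPT, the fewest without the second control library, and 2 calls with ETO whichever library was left out. It hung on scaling too: set against all reads, the ratio of the median gene with CPT moved to -0.86, 0 members rose and 4 fell, where 0.187% of 9077 genes rose and 24.4% fell, and PGAM1 stood at -0.12. With ETO 4 rose and 0 fell, where 0.397% and 0.0441% of genes did.

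New RNA alone, as CPM of converted reads, gave fewer calls. With CPT, 3 of 27 members rose and 0 fell (6.28% of 9077 genes were called, 3.59% higher and 2.69% lower), and with ETO 2 rose and 0 fell (1.96% called, 1.26% higher and 0.705% lower). ENO1 stood at 464, 523 and 476 CPM in the control, 884, 708 and 622 with CPT and 888, 1037 and 969 with ETO, with both drug groups above the control. It rose by 0.60 ± 0.14 with CPT and 0.98 ± 0.14 with ETO (edgeR adjusted p = 0.012 and 6.8e-05). TPI1 stood at 123, 86.0 and 102 CPM in the control, 211, 209 and 157 with CPT and 262, 220 and 243 with ETO, and rose by 0.90 ± 0.26 and 1.22 ± 0.24 (edgeR adjusted p = 0.035 and 0.0040). Its ETO call was lost without the second control library (edgeR adjusted p = 0.068). Its CPT call was lost without any 1 of the control libraries and without the first or the second CPT library (edgeR adjusted p from 0.062 to 0.20). It was also lost without the filter, with the replicate block and with only the 2 groups in the fit (edgeR adjusted p = 0.066, 0.055 and 0.078), and scaled to all reads it stood at 0.20 (edgeR adjusted p = 0.58). ENO2 rose by 1.96 ± 0.46 with CPT (edgeR adjusted p = 0.0097), from 26.3, 22.9 and 27.0 to 91.6, 124 and 82.6 CPM, which rests on 16 to 35 converted reads in a library. So, with new RNA scaled to converted reads, ENO2 was higher in new and in total RNA with CPT. On that scale ENO1 and TPI1 were higher in new RNA and lower in total RNA. This contrast hung on the scaling: set against all reads, ENO1 stood at -0.10 and TPI1 at 0.20 in new RNA, and neither was called. ENO1's call with CPT was also lost without the first CPT library (edgeR adjusted p = 0.056), and that of ENO2 without any 1 of the control libraries (edgeR adjusted p from 0.057 to 0.071). With CPT the count was 0 without the first or the third control library and 1 without the second. The members' median log2 was 0.00 with CPT and 0.41 with ETO, against -0.06 and 0.01 for all genes.

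These values are relative to the new RNA of each library, and converted reads were 1.98 to 2.08% of all reads in the control, 1.27 to 1.30% with CPT and 2.21 to 2.22% with ETO. Scaled instead to all reads, the median gene moved to -0.75 with CPT, 1 member (ENO2) rose and 9 fell, where 1.01% of 8810 genes rose and 28.8% fell, and ENO1 stood at -0.10. With ETO, scaled that way, 3 rose and 0 fell, where 2.09% and 0.545% of genes did. With CPT, SLC2A1 (-1.09), PFKFB3 (-0.95), LDHB (-1.06) and PDK1 (-1.87) were among the 9 that fell. Directly compared, LDHB was lower with CPT than with ETO (-0.97 ± 0.21, edgeR adjusted p = 0.016), the 1 member called, where 2.14% of all genes were called, 1.13% lower and 1.0% higher; the call was lost without the first or the second ETO library (edgeR adjusted p = 0.11 and 0.091), and scaled to all reads 17 members were lower, as were 35.1% of 8810 genes. Of 12 other hypoxia targets tested in new RNA, STC2 and ANKZF1 rose with both drugs, where 3.59% of 9077 genes rose with CPT and 1.26% with ETO. STC2 went from 23.4, 53.1 and 46.3 CPM to 163, 166 and 157 with CPT and 228, 237 and 196 with ETO.

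In mouse naïve T cells most glycolytic members with enough UMIs to compare were higher at later times of stimulation, and BNIP3L's mouse gene was lower. There was 1 library at each time, so there is no replicate check and no test; intervals are exact 95% Poisson intervals and cover counting error only. CPM here count UMIs and not reads. The libraries were shallow, with a median of 338 to 659 UMIs per barcode. The 34 members summed to 1656 CPM at 0 h (interval 1564 to 1752), 2399 at 2 h, 3600 at 4 h, 4114 at 6 h and 5178 at 8 h (5012 to 5348). Of 14 members with at least 50 UMIs at 0 and 8 h together, 9 were at least 2-fold higher at 8 h with intervals apart and 1 was lower, against 31.1% and 28.2% of 3194 genes. This limit, used for all genes alike, lets a gene low at 0 h enter through its UMIs at 8 h, as Tpi1 did. Members below the limit were not counted. The members' median log2 ratio was 1.60 and that of these genes 0.12.

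**Figure D3:**
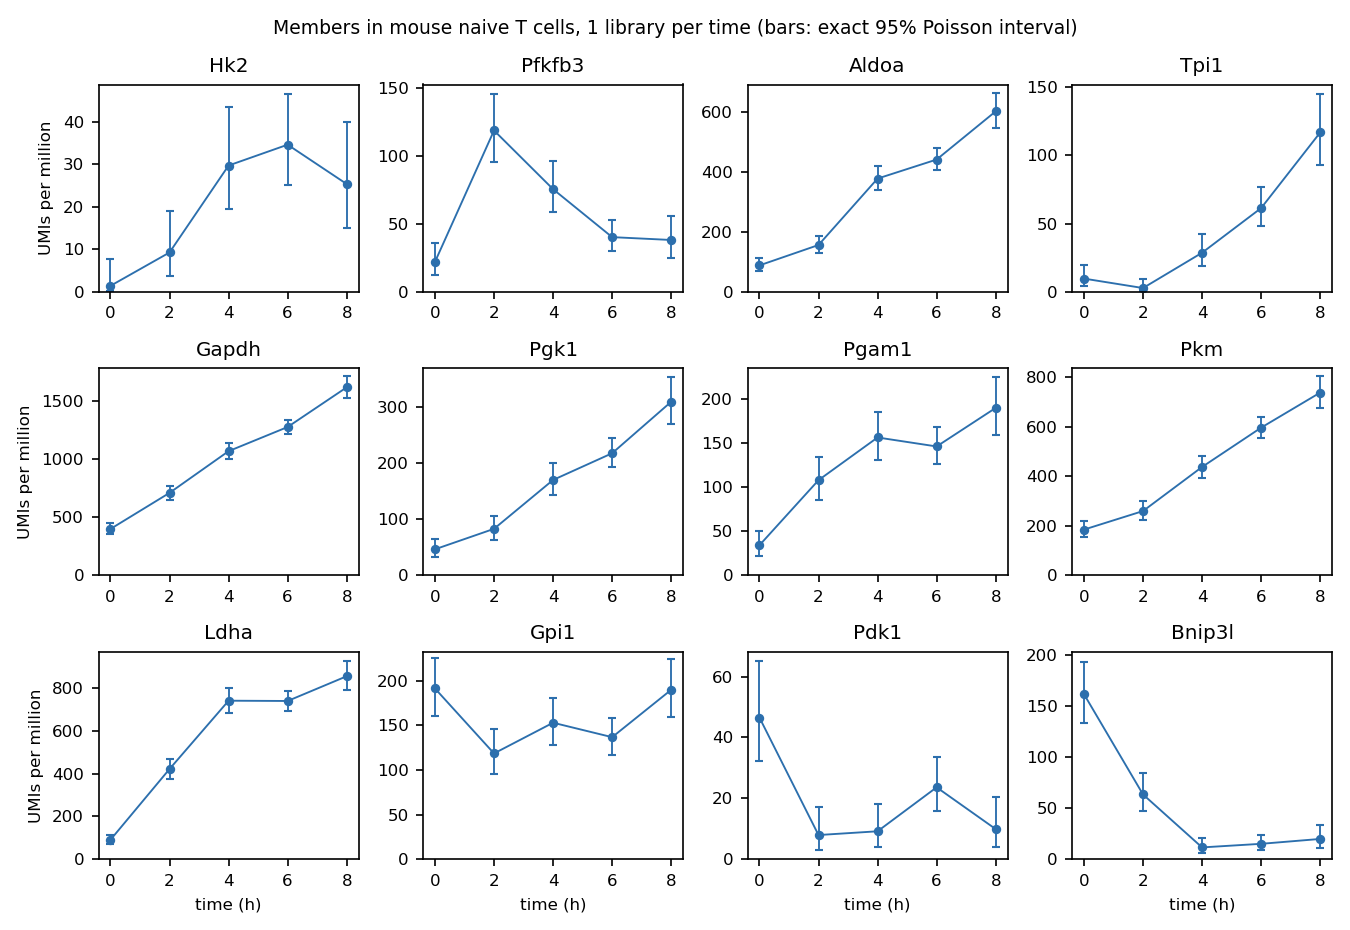
CPM (y axis, from 0) of 12 members in mouse naïve T cells at 0, 2, 4, 6 and 8 h, 1 library per time, with exact 95% Poisson intervals. Aldoa, Gapdh, Pgk1, Pkm and Ldha are higher at each later time or level off, Pfkfb3 is highest at 2 h, and Pdk1 and Bnip3l are highest at 0 h.

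Ldha stood at 90.3 CPM at 0 h (69.8 to 115), 422 at 2 h, 741 at 4 h, 740 at 6 h and 856 at 8 h (789 to 926), 9.48-fold over 0 h, with most of the difference present by 4 h. Aldoa stood at 87.5, 155, 377, 440 and 601 over the same times, Pgk1 at 46.5, 83.0, 170, 218 and 310, and Gapdh at 399, 710.0, 1069, 1277 and 1619. Each of these 3 was highest at 8 h, without overlap of the 0 and 8 h intervals. Tpi1 had 7 UMIs at 0 h and 2 at 2 h, and then stood at 28.6, 61.3 and 117 CPM, 12.2-fold over 0 h at 8 h. Pgam1 was 5.56-fold, Pkm 3.99-fold, Pfkl 2.32-fold and Eno1 2.21-fold higher at 8 h, Eno1 with little difference up to 6 h (65.6, 73.8, 59.4 and 77.8).

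The upstream members had other time courses. Pfkfb3 stood at 21.9 CPM at 0 h (12.5 to 35.5), 119 at 2 h (95.3 to 146), 75.4 at 4 h, 40.1 at 6 h and 38.0 at 8 h, so it was highest at 2 h, and the 2 h interval lay above those of 0, 6 and 8 h. Hk2 had 1 UMI at 0 h and stood at 34.6 CPM at 6 h (25.1 to 46.4) and 25.3 at 8 h (15.0 to 40.0). Gpi1 did not follow the other enzymes, at 191, 119, 153, 137 and 190. Slc2a1 and Slc2a3, the glucose transporters, had 1 to 14 UMIs in each of these libraries, too few for a comparison.

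Bnip3l stood at 161 CPM at 0 h (134 to 193), 63.2 at 2 h, 11.4 at 4 h, 14.9 at 6 h and 19.7 at 8 h (10.8 to 33.1), 8.19-fold lower at 8 h. Pdk1 stood at 46.5 at 0 h (32.2 to 65.0) and 9.85 at 8 h (3.96 to 20.3), on 34 and 7 UMIs. Slc16a1, a lactate transporter, stood at 34.2, 35.6, 53.7, 81.8 and 66.1 CPM, and its 6 h interval (66.8 to 99.1) lay above that of 0 h (22.1 to 50.5). Hif1a stood at 49.2, 48.7, 61.7, 51.1 and 43.6, with overlapping intervals. Aldoc and Adm had 0 UMIs in all of these libraries, which at 8 h allows up to 4.22 CPM (3 counts). The library without 4sU, compared with the 0 h library, had 0 of 15 members differing by 2-fold with intervals apart, against 3.88% of genes higher and 0.419% lower. Of the other lists, Fam162a, a hypoxia target, stood at 12.3 at 0 h and 183 at 8 h, and Tfrc, the transferrin receptor, at 9.57 at 0 h, 364 at 4 h and 129 at 8 h. Kdm3a, on the same list of other hypoxia targets, went the other way. It was at least 2-fold lower at 2 h and at 4 h than at 0 h, with intervals apart. NK cell markers, 2 or 3 of 4 with a UMI, summed to 167 CPM at 0 h and 549 at 8 h, of which Nkg7 was the top gene at 8 h. B cell markers went from 76.6 to 38.0 and myeloid markers from 101 to 28.1, each mostly from 1 gene. Ighm held 53 of 56 B cell marker UMIs at 0 h and 24 of 27 at 8 h. Ly6c2 held 65 of 74 myeloid marker UMIs at 0 h and 15 of 20 at 8 h. Without barcodes that held UMIs of these 3 marker lists, the summed members were 3.20-fold higher at 8 h than at 0 h, and 3.13-fold over all barcodes.

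In the Jurkat single-cell libraries few members were 2-fold apart with stimulation. The titles mark 1 unstimulated and 1 stimulated library as rep1 (set 1) and give no number for the others (set 2). The clone label differs between stimulated and unstimulated cells, so clone and stimulation cannot be told apart. Levels of these 4 libraries are CPM with TMM scaling, as in the test, and ratios of single libraries are of UMIs over the library's total. GAPDH stood at 1970.4 CPM unstimulated and 1705 stimulated in set 1, and at 11898 and 12685 in set 2. VEGFA, SLC16A3 and PDK1 were higher in set 1: unstimulated PDK1 was at 103 CPM in set 1 and 36.1 in set 2. Between the unstimulated libraries of the 2 sets, 3 of 33 members were at least 2-fold higher in set 2 with intervals apart and 6 lower (12.6% and 27.9% of genes). ALDOA, GAPDH and PKM were the higher ones and ALDOC, SLC16A3, PDK1, HIF1A, VEGFA and P4HA1 the lower. Between stimulated and unstimulated libraries, 2 (SLC2A3 and ANKRD37) were higher and 0 lower in set 1 (3.38% and 0.951% of genes), and 0 and 0 in set 2 (2.34% and 0.83%). Tested without regard to set, 0 of 34 members passed, as did 0.0% of 19094 genes (edgeR; at an unadjusted p under 0.05, 0 members and 217 genes; DESeq2 called 0 members and 49 genes, and edgeR without the filter 0 members and 12 genes). With the set as a term, 5 members rose and 0 fell, where 5.62% of genes rose and 5.17% fell, with 1 residual degree of freedom among 4 libraries before the spread is shared over genes.

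The 5 were SLC2A3, PKM, PFKFB3, HK2 and P4HA1. SLC2A3 went from 8.31 to 16.9 CPM in set 1 and from 5.91 to 9.08 in set 2 (log2 0.90 ± 0.19, edgeR adjusted p = 4.5e-05). PKM went from 263 to 421 and from 1049 to 1543 (0.62 ± 0.14, edgeR adjusted p = 4.6e-04), PFKFB3 from 78.4 to 112 and from 57.1 to 78.5 (0.49 ± 0.13, edgeR adjusted p = 0.0020), and HK2 from 22.4 to 32.6 and from 34.8 to 46.3 (0.48 ± 0.13, edgeR adjusted p = 0.0040). P4HA1 went from 80.6 to 123 in set 1 and from 43.9 to 46.8 in set 2 (0.39 ± 0.13, edgeR adjusted p = 0.026). In all 5 the stimulated library was the higher within each set. ENO1, at 918 and 900 CPM in set 1 and 1895 and 1947 in set 2, and LDHA, at 403 and 379 and at 518 and 665, did not pass.

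**Figure D4:**
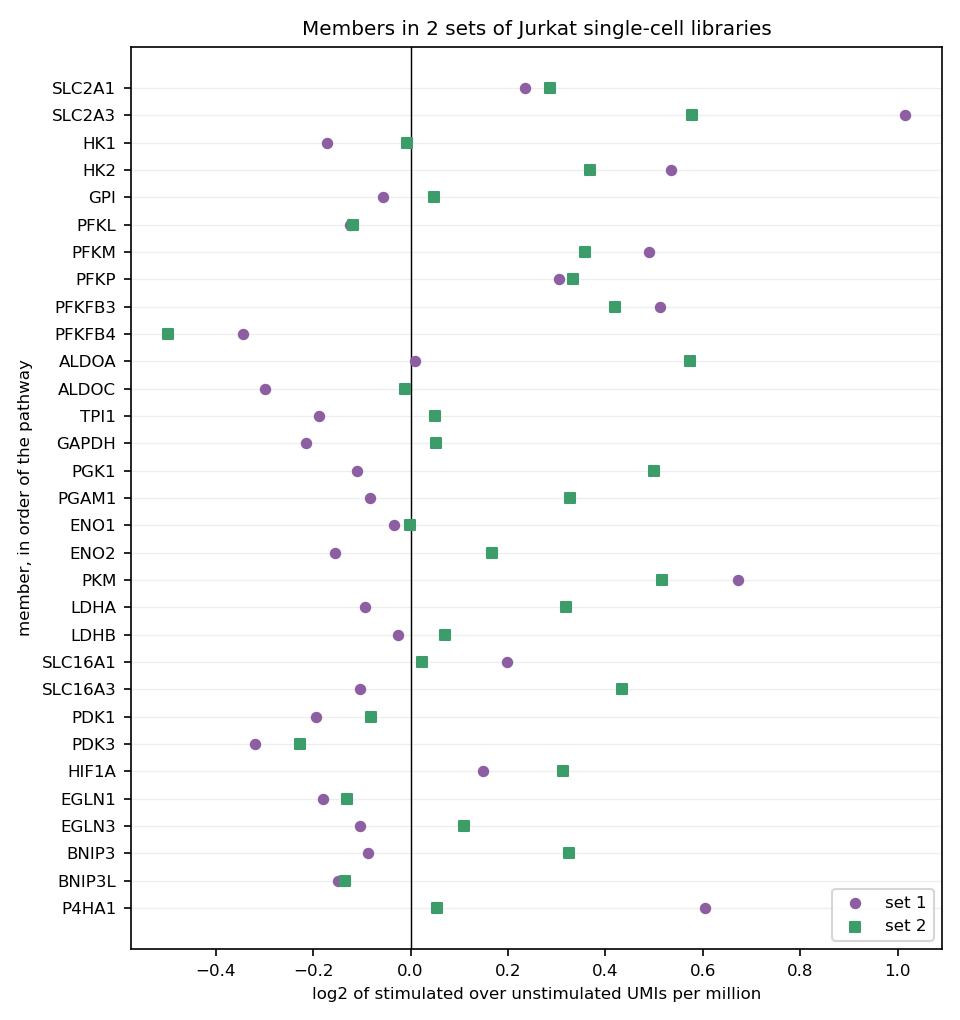
Log2 of stimulated over unstimulated UMIs, each over the library's total (x axis), in each of the 2 sets of Jurkat single-cell libraries (circles: set 1; squares: set 2), for the 31 members with at least 50 UMIs in both pairs. SLC2A3, PKM, PFKFB3 and HK2 lie right of 0 in both sets, while TPI1, GAPDH, PGK1 and LDHA lie on different sides of 0.

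Levels differed between the eHAP libraries, with 1 library per protocol and no test, so protocol and library cannot be told apart. The summed members were 8832 CPM by the 10x kit, 13849 by NOTE-seq and 10714 after methanol. By NOTE-seq, 11 of 34 members were at least 2-fold higher than by 10x with intervals apart and 3 lower, against 19.8% and 7.04% of 16701 genes. SLC16A3 (61.6 against 10.3), PFKL (99.3 against 30.9) and GPI (416 against 139) were higher, and ADM (5.30 against 16.5) and ANKRD37 (1.74 against 4.47) were lower. SLC2A1, HK2, PFKFB4, ALDOC, GAPDH, PGAM1, ENO2 and PKM were also higher, and EGLN3 lower. After methanol, 19 members were lower and 3 higher, where 63.6% of 15746 genes were lower and 3.38% higher. HIF1A stood at 22.1 after methanol and 116 by 10x, and PFKFB3 at 4.27 and 37.5, while TPI1 stood at 2192 and 1015 and GAPDH at 5090.4 and 2289. ALDOC was also higher. The other lower members were SLC2A3, HK1, HK2, GPI, PFKP, PFKFB4, PGK1, PKM, SLC16A1, PDK1, PDK3, EGLN1, EGLN3, VEGFA, ANKRD37, P4HA1 and ADM. The 4sU label, the chemistry and fixation differ together between these libraries and cannot be told apart.

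The 2 libraries labelled K562 went against their label: erythroid markers had 0 UMIs in the library without IAA and 20 UMIs in the library with IAA. The 5 NK cell markers summed to 323 and 10048 UMIs, of which NKG7 alone held 317 and 9862. Myeloid markers had 109 and 3282 UMIs, with LYZ the top gene at 43 and 1501. B cell markers had 31 and 996, with EBF1 the top gene at 17 and 523, and T cell markers 20 and 291. Which cells these are was not tested. Of 33 members with 50 UMIs in the pair, 10 were at least 2-fold higher with IAA than in the unstimulated Jurkat library of set 1 and 8 lower, near the 25.0% and 26.1% of all genes. CPM here are UMIs over the library's own total, without TMM scaling, so a Jurkat library has other values than in the test of stimulation. PDK1 stood at 691 CPM with IAA, against 118 in unstimulated Jurkat cells of set 1 and 32.1 in those of set 2. GPI stood at 1425 against 325 and 317, SLC16A3 at 227 against 22.7 and 2.77, and VEGFA at 34.6 against 3.92 and 0.277, the last on 2 UMIs. PKM was at 1469 against 300.3 in set 1, but at 934 in set 2, less than 2-fold lower. The other higher members were SLC2A3, PFKL, PFKM, ALDOA and EGLN3, of which ALDOA was lower than in set 2 (9.07 against 22.8). ENO2 had 1 UMI with IAA (0.0890 CPM), against 62.4 in set 1 and 45.5 in set 2, and ALDOC, PGAM1, HIF1A, EGLN1, BNIP3, BNIP3L and ANKRD37 were the other members lower than in set 1. With and without IAA the members were close: PDK1 stood at 691 and 719, and only SLC2A1 differed by 2-fold (27.8 and 65.6, the second on 29 UMIs of 49 barcodes), against 1.31% of genes lower and 0.597% higher. In the mixture, NIH3T3 cells held Aldoa at 623 CPM and Ldhb at 21.6, and Jurkat cells LDHB at 1419 and ENO2 at 39.8. ALDOA was at 31.2 in those Jurkat cells and at 3.04 to 34.0 CPM in the other Jurkat single-cell libraries, against 615 to 639 CPM in the control bulk libraries; the cause was not tested.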

How the data were processed

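Bulk tables, per the file headers, came from slamdunk 0.4.3 over GENCODE 33 3' UTRs, and hold the authors' deposited read counts and converted-read counts for each 3' UTR. Single-cell matrices, per the file headers from cellranger 7.1.0 or 7.2.0, hold deposited UMI counts. The build, per the submitters' processing notes, was GRCh38 or mm10. Other steps are not given in the sources used here.

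Overlapping 3' UTR lines of a strand were grouped, the line with most reads stood for its group, groups were named by RefSeq gene spans, allowing 2000 bases past the gene end, and a gene's groups were summed. UMIs were summed over the deposited barcodes of a library, with no doublet removal; barcodes of the mixture needed 90% of UMIs from 1 species. At most 6 barcodes were shared by any 2 libraries. Counts were tested with edgeR 4.0.16 (quasi-likelihood, filterByExpr, TMM, Benjamini-Hochberg over all genes, threshold 0.05) and, as an alternative, DESeq2 1.42.0, in R 4.3.3. All 3 bulk groups shared 1 fit. The tests were also run on simulated counts with 200 changed genes, and the outcome is not given here. Single libraries were compared by exact 95% Poisson intervals. Replicates differed by more than sampling noise.

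The members and lists were chosen with earlier results of these data known. Genes named were every member past the threshold and the most abundant of each role, and for single libraries those at least 2-fold apart with 50 UMIs and intervals apart; a few members below these limits are given as values. Mouse bulk tables were not analysed here.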

Additional observations from a re-analysis of the deposited data

How the results depend on the processing

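The counts of members in total RNA kept their size under every alternative run (DESeq2, its size factors, no filter, only the groups compared, leaving out libraries, and, chosen after seeing the data, without the 3 multimapped members): 28 to 29 with CPT, 20 to 24 with ETO and 18 to 22 for CPT against ETO when 1 library was left out, from 29, 23 and 21. Counts in new RNA are small and moved. For CPT against control, 3 members became 10 with library sizes from all reads, and 0 to 4 without 1 library. For ETO against control, 2 became 6 with only the groups compared, and 1 to 2 without 1 library. For CPT against ETO, 1 became 2 without the filter, 2 with DESeq2, 17 with library sizes from all reads and 0 with only the groups compared, and 0 to 3 without 1 library. For the ratio, 5 with CPT became 1 to 5 and 4 with ETO became 2 without 1 library, and 10 with ETO without the filter. Scaled to all reads, ENO1 in new RNA with CPT turned to -0.10 and the PGAM1 ratio to -0.12; the median gene moved by the same scaling.

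The replicate block (same-numbered bulk libraries, whose deviations did not go together) gave 2 ratio calls with CPT and 2 with ETO, and changed no other bulk count by over 1.5 times. For stimulated Jurkat cells the replicate block, which is the set as a term, gave 5 calls in place of 0. The fit without the set gave 0 calls also without any 1 library; leaving out libraries from the fit with the set was not run.

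For the single libraries, taking UMIs outside mitochondrial and ribosomal protein genes gave a summed ratio of 2.78 in naïve T cells at 8 h over 0 h (3.13 over all UMIs), 1.53 for NOTE-seq over 10x (1.57) and 1.56 for methanol over 10x (1.21), and sums of 13050 CPM for the IAA library labelled K562, 23999 for Jurkat and 8205 for NIH3T3 cells of the mixture. Barcodes under 10% mitochondrial gave 1.56 for NOTE-seq and 1.20 for methanol. The median converted share of the members in control Jurkat, 0.255 of that of all genes, ranged from 0.243 to 0.262 without 1 library. Depth limits ENO2, PDK1 and ADM in new RNA and most upstream members in naïve T cells.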
